A study of Mus musculus with 12 samples.

Results

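The mitosis and spindle checkpoint genes are a list of 50 genes that carry a cell through chromosome condensation, spindle attachment, anaphase and division. They were found by gene symbol among the probe sets of the array, and the brightest probe set of a gene by mean over all arrays stands for it. Of the 50 genes, 49 had a probe set with that single symbol, and all 49 exceeded a log2 intensity of 4 on at least 3 of the 12 arrays. They are 49 of 10287 genes tested and of 18194 genes with a probe set. Ccnb1, the gene of cyclin B1, is the member without one and has no value here.

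The arrays measured total RNA of bone marrow cells held back by magnetic beads against B220, a surface protein of the B lineage, on 1 Affymetrix MOE430 2.0 array per sample. All mice were littermates of the Eμ-Myc;Eµ-TTP-1 mice, 4 to 6 weeks old, with a strain background of 94% C57BL/6. The 12 arrays form 4 groups of 3 biological replicates: wild type mice, mice with the Eµ-TTP-1 transgene (TTP below), mice with the Eμ-Myc transgene (Myc), and mice with both, Eμ-Myc;Eµ-TTP-1 (Myc TTP). The labels describe the Myc and Myc TTP mice as precancerous. The name Eµ stands for the enhancer of the immunoglobulin heavy chain gene, which drives both transgenes in cells of the B lineage. TTP, tristetraprolin, is an RNA-binding protein that shortens the life of mRNAs with AU-rich elements, and is encoded by Zfp36. The labels give neither sex nor whether several animals were pooled for a sample. The design asks whether Myc, TTP or both alter the expression of these genes in the B lineage before lymphoma appears.

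As background, the mRNAs of mitotic genes are made in waves, late in the cell cycle, so their level in a cell population follows the share of cells in G2 and mitosis. In resting and early cycling cells the DREAM complex holds their promoters silent. Later the MYBL2 protein (B-Myb) and FOXM1 take over the same promoters and activate them, through a DNA element called CHR that usually lies close to the start site and often works together with CCAAT boxes bound by NF-Y. In the bone marrow, the large pre-B cell is among the most actively dividing cells of the B lineage. In a bulk sample, fewer dividing cells and less of an mRNA in each cell cannot be told apart.

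The promoters of the members were searched for these elements. In RefSeq promoters of build GRCm38.p6, from 250 bases before the start to 50 after it, 40 of the 49 members were found. Both strands were searched for the CHR letters TTTGAA or TTTAAA, and for the CCAAT box, which reads ATTGG on the other strand. A gene with several promoters counts when any of them matches. A CHR match was present in 31 of 40 members (77.5%). It was present in 22.4% of the 8440 tested genes found there and in 30.6% of all 27025 genes of the table. A CCAAT box was present in 29 members (72.5%), against 43.5% of tested and 41.1% of all genes. At least 2 CCAAT boxes stood in 20 members (50.0%), against 17.3% and 13.3%. CHR and CCAAT stood together in 25 members (62.5%), against 9.17% of tested and 12.2% of all genes. The E-box CACGTG, the sequence that MYC and MAX prefer, was present in 3 members (7.5%), against 12.3% and 8.09%. The E2F letters TTTGGCGC or TTTCCCGC were present in 2 members (5.0%), against 3.78% and 1.8%. CHR and CCAAT matches were thus more frequent in the members than in either background, which describes these windows and not binding. The E-box and E2F counts are too small to be read as a difference.

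The following stretches run from 120 bases before the start to 30 after it, 5′ to 3′ on the strand of the gene, with CHR and CCAAT matches in capitals. Cdk1, Ccnb2 and Espl1 are shown because they carry the usual arrangement, with a CCAAT box before a CHR close to the start. Plk1 is shown because, within the stretch, it carries both elements in the other order. Its CHR matches in the stretch began 89 and 29 bases before the start, and its CCAAT box 14. A further CHR match of Plk1, past the end of the stretch, began 31 bases into the transcript and so follows the CCAAT box. Pttg1 is shown because it had the lowest Myc over wild type value of the members and has no match in the stretch.
Cdk1, chr10:69352883-69353032, minus strand: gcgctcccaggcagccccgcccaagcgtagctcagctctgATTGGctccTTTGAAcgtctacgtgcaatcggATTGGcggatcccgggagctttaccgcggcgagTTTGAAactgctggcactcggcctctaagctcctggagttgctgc
Ccnb2, chr9:70421525-70421674, minus strand: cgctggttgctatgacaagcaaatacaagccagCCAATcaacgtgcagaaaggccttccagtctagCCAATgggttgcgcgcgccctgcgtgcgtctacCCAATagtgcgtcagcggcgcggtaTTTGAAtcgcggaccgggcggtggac
Plk1, chr7:122159315-122159464, plus strand: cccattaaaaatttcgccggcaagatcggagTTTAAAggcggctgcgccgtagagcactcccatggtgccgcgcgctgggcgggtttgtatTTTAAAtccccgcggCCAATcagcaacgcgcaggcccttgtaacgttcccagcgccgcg
Espl1, chr15:102296173-102296322, plus strand: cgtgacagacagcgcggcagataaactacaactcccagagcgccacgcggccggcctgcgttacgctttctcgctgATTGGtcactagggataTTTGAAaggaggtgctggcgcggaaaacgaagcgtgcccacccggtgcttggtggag
Pttg1, chr11:43425952-43426101, minus strand: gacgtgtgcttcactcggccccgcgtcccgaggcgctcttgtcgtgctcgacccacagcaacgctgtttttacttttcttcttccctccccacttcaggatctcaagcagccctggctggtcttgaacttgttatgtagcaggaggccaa
In Ccnb2, 3 CCAAT boxes started 87, 54 and 21 bases before the start site, and the printed CHR began 5 bases into the transcript. In Espl1, a single CCAAT box began 44 bases and a CHR 27 bases before the start.

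Values are GCRMA intensities on a log2 scale, on which 1 unit is a doubling, and differences between groups are given with the standard error of the limma fit over all 12 arrays. A gene is called when its Benjamini-Hochberg adjusted p over the 10287 genes is under 0.05. Groups are said not to overlap when all 3 arrays of one lie above all 3 of the other. The number of arrays limits the precision.

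Arrays that go against their labels bear on every comparison below. The Myc probe set had an intensity of 805 and 819 on wild type arrays 1 and 2 and of 1060 and 1343 on TTP arrays 1 and 2, but of 6411 on the array labelled wild type 3 and 11360 on the array labelled TTP 3, called the discordant arrays below. It was 8163 to 15451 in Myc and 3617 to 10551 in Myc TTP. The discordant arrays are in neither group of Myc TTP over Myc, and enter its p-values through the shared estimate of the spread. Zfp36 was not higher on arrays with the TTP transgene, at 878 to 952 in TTP and 177 to 579 in Myc TTP, against 892 to 1663 in wild type and 623 to 1022 in Myc. Whether its probe set detects the transgene is not known here. All 7 pan-B markers tested were above a log2 intensity of 4 on every array, but markers of other cells were present too. The summed intensity of 10 granulocyte markers was 214167 to 293551 in wild type, 170968 to 328936 in TTP, 8999 to 201480 in Myc (with up to 4 of the 10 at or under a log2 intensity of 4) and 102092 to 152454 in Myc TTP.

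**Figure D1:**
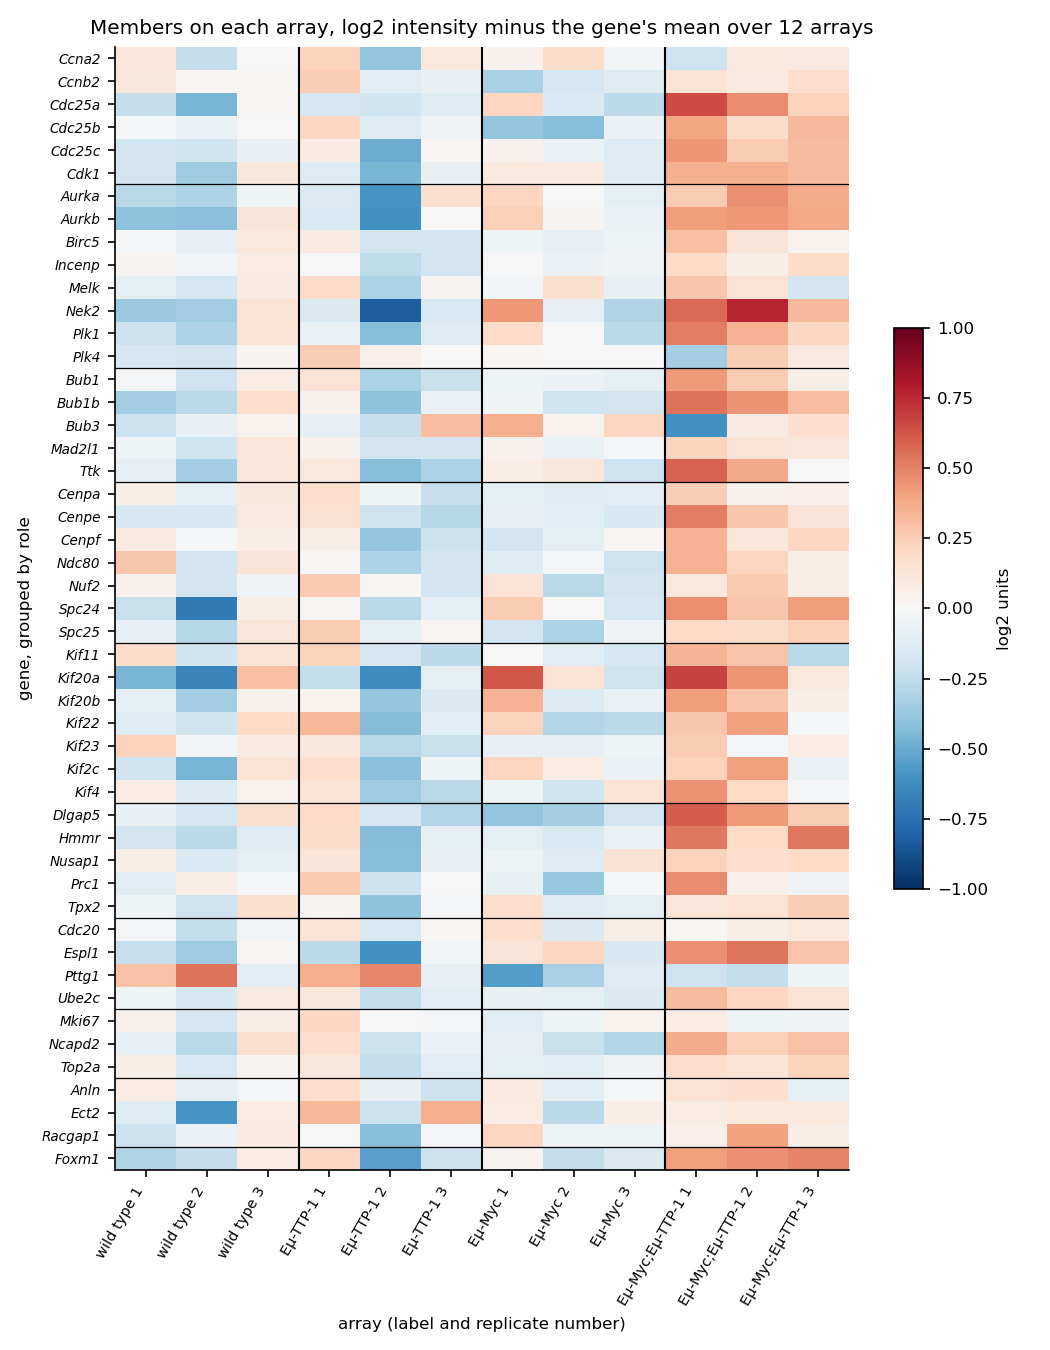
Log2 intensity of each of the 49 members (rows, ordered by role) on each of the 12 arrays (columns), minus the mean of the gene over all arrays; red is above and blue below that mean. The Myc TTP columns are mostly red, with 45, 46 and 39 members above their own mean, but so are those labelled TTP 1 and wild type 3, with 39 and 38. The second wild type and second TTP columns are mostly blue, with 3 members above it on each.

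Across the 12 arrays the mitosis genes varied less than the genes tested as a whole. The range between the highest and the lowest array had a median of 0.80 log2 units over the 49 members, against 1.10 over all genes tested. It exceeded 1 log2 unit in 10 members (20.4%), against 56.8% of all genes. Mki67, the proliferation antigen Ki-67 that coats mitotic chromosomes, had the smallest range of the members, 0.37, and Nek2 had the largest, 1.59. The SD between arrays of a group had a median of 0.18 over the members and 0.28 over all genes. The members were also brighter, with a median mean log2 intensity of 11.47 against 9.12 over all genes. Their spread was not compared with that of genes of like level.

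The spread that did exist was shared among members and followed single arrays. The median log2 intensity of the members was 11.40, 11.36 and 11.52 in wild type, 11.65, 11.19 and 11.39 in TTP, 11.64, 11.28 and 11.37 in Myc, and 11.80, 11.82 and 11.62 in Myc TTP. The array labelled TTP 2 was the lowest of all 12 for 27 members, and the array labelled Myc TTP 1 was the highest for 27. As group means the member median was 11.43 ± 0.08 (SD, n = 3) for wild type, 11.41 ± 0.23 for TTP, 11.43 ± 0.19 for Myc and 11.74 ± 0.11 for Myc TTP. In the values as deposited, the first 3 group means lie within 1 SD of each other, and the Myc TTP mean stands above them. The median of all genes tested was 9.14, 9.29 and 9.24 in wild type and 8.96, 8.98 and 8.96 in Myc. In TTP it was 9.25, 9.31 and 8.93, and in Myc TTP 9.38, 9.21 and 9.10. With every array moved to a common median, the members' median difference was 0.28 for Myc over wild type and 0.05 for Myc TTP over Myc. The order of the groups thus depends on the scaling.

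**Figure D2:**
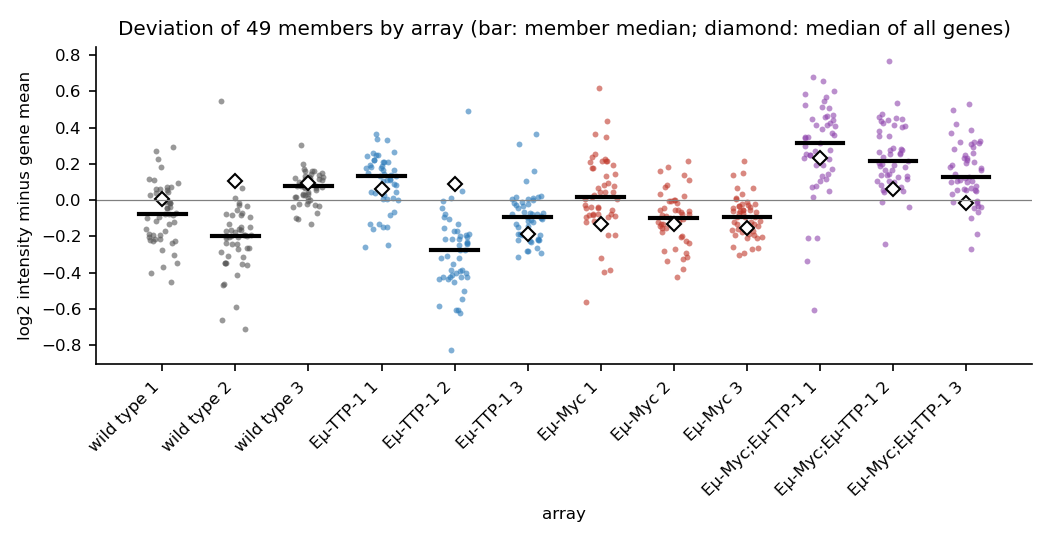
Deviation of each member (points, n = 49) from its own mean over the 12 arrays, in log2 units, by array; bars give the median of the members and diamonds the median of all 10287 genes tested. The members' medians run from -0.27 on the array labelled TTP 2 to 0.31 on the array labelled Myc TTP 1.

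In the order wild type, TTP, Myc and Myc TTP, and within a group by replicate number, the members had the following values, with the probe set in parentheses. Probe sets whose names end in s_at or x_at can also detect related transcripts. The cyclins, Cdk1 and the Cdc25 phosphatases switch the cell into mitosis. Cdk1 (1448314_at) had log2 intensities of 12.07, 11.91 and 12.38 in wild type, 12.14, 11.81 and 12.19 in TTP, 12.36, 12.35 and 12.15 in Myc and 12.63, 12.62 and 12.58 in Myc TTP. Cdk1 is the kinase that phosphorylates the proteins of the dividing cell, and all 3 Myc TTP arrays lay above every other array. Ccna2 (1417910_at) had log2 intensities of 13.52, 13.16 and 13.39 in wild type, 13.62, 13.00 and 13.50 in TTP, 13.44, 13.58 and 13.37 in Myc and 13.19, 13.50 and 13.50 in Myc TTP. Ccna2 encodes cyclin A2, which acts from S phase to early mitosis. On this probe set its groups overlapped in every comparison. Ccnb2 (1450920_at) had log2 intensities of 12.74, 12.64 and 12.64 in wild type, 12.88, 12.52 and 12.55 in TTP, 12.30, 12.45 and 12.50 in Myc and 12.76, 12.73 and 12.80 in Myc TTP. Ccnb2 encodes cyclin B2, a partner of Cdk1, and its Myc arrays lay below all wild type and all Myc TTP arrays. Cdc25b (1421963_a_at) had log2 intensities of 12.35, 12.28 and 12.35 in wild type, 12.56, 12.22 and 12.32 in TTP, 11.97, 11.93 and 12.30 in Myc and 12.75, 12.54 and 12.68 in Myc TTP. Cdc25b removes the inhibitory phosphates from Cdk1. Its array labelled Myc 3 was within the range of the wild type arrays, while the other Myc arrays lay below them.

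The mitotic kinases and the chromosomal passenger complex correct attachments and time the stages. Aurkb (1424128_x_at) had log2 intensities of 11.40, 11.38 and 11.93 in wild type, 11.65, 11.19 and 11.81 in TTP, 12.03, 11.82 and 11.74 in Myc and 12.21, 12.23 and 12.19 in Myc TTP. Aurkb is the kinase of the passenger complex, and its arrays labelled wild type 3 and TTP 3 lay close to the Myc arrays rather than to their own group. Incenp (1439436_x_at) had log2 intensities of 13.24, 13.19 and 13.29 in wild type, 13.21, 12.96 and 13.02 in TTP, 13.22, 13.16 and 13.18 in Myc and 13.41, 13.28 and 13.40 in Myc TTP. Incenp is the scaffold of that complex and Birc5 (survivin) its subunit that finds the centromere. Birc5 (1424278_a_at) had log2 intensities of 13.34, 13.27 and 13.46 in wild type, 13.45, 13.16 and 13.16 in TTP, 13.32, 13.28 and 13.30 in Myc and 13.65, 13.48 and 13.39 in Myc TTP. Both genes had close values in all groups and were highest on the array labelled Myc TTP 1. Nek2 (1437580_s_at) had log2 intensities of 9.93, 9.95 and 10.43 in wild type, 10.15, 9.47 and 10.15 in TTP, 10.73, 10.22 and 10.00 in Myc and 10.87, 11.06 and 10.62 in Myc TTP. Nek2 separates the centrosomes. Its values were low on the array labelled TTP 2 and high on all Myc TTP arrays and on the array labelled Myc 1.

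The spindle checkpoint delays anaphase until every kinetochore is attached. Bub1b (1447363_s_at) had log2 intensities of 11.03, 11.11 and 11.55 in wild type, 11.42, 10.97 and 11.30 in TTP, 11.34, 11.17 and 11.18 in Myc and 11.92, 11.82 and 11.68 in Myc TTP. Bub1b encodes BubR1, a part of the complex that inhibits the anaphase-promoting complex, and its Myc TTP arrays lay above all others. Mad2l1 (1422460_at) had log2 intensities of 12.66, 12.51 and 12.83 in wild type, 12.75, 12.52 and 12.52 in TTP, 12.76, 12.65 and 12.69 in Myc and 12.93, 12.85 and 12.83 in Myc TTP. Mad2l1 encodes Mad2, the checkpoint protein that binds Cdc20. Its Myc TTP arrays reached the upper end of the wild type arrays and overlapped them. Bub3 (1416815_s_at) had log2 intensities of 12.59, 12.73 and 12.84 in wild type, 12.72, 12.57 and 13.11 in TTP, 13.17, 12.83 and 13.01 in Myc and 12.19, 12.88 and 12.97 in Myc TTP. Bub3 brings Bub1 and BubR1 to kinetochores. It was lowest on the array labelled Myc TTP 1, in contrast to the majority of the members, which were highest there.

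Centromeres and kinetochores are where the chromosomes attach to microtubules. Cenpa (1450842_a_at) had log2 intensities of 13.16, 13.00 and 13.21 in wild type, 13.28, 13.06 and 12.86 in TTP, 13.01, 12.98 and 12.98 in Myc and 13.34, 13.14 and 13.15 in Myc TTP. Cenpa encodes the histone H3 variant that marks the centromere. Cenpf (1427161_at) had log2 intensities of 11.93, 11.82 and 11.90 in wild type, 11.89, 11.45 and 11.62 in TTP, 11.64, 11.75 and 11.85 in Myc and 12.18, 11.95 and 12.04 in Myc TTP. Cenpf encodes a large kinetochore protein that accumulates in G2. Its Myc TTP arrays lay above all other arrays. Spc24 (1431087_at) had log2 intensities of 9.72, 9.23 and 10.00 in wild type, 9.95, 9.67 and 9.85 in TTP, 10.20, 9.94 and 9.77 in Myc and 10.41, 10.22 and 10.36 in Myc TTP. Spc24 is a subunit of the NDC80 complex, which holds the microtubule, and its lowest value was on the array labelled wild type 2. It was among the 10 members with a range over 1 log2 unit.

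Kinesins and spindle assembly factors build the spindle and the midzone. Kif11 (1435306_a_at) had log2 intensities of 12.76, 12.38 and 12.71 in wild type, 12.80, 12.41 and 12.32 in TTP, 12.59, 12.47 and 12.41 in Myc and 12.92, 12.87 and 12.31 in Myc TTP. Kif11 encodes Eg5, the motor that pushes the spindle poles apart, and its groups overlapped in every comparison. Kif20a (1449207_a_at) had log2 intensities of 10.68, 10.47 and 11.43 in wild type, 10.88, 10.51 and 11.03 in TTP, 11.75, 11.27 and 10.92 in Myc and 11.81, 11.57 and 11.24 in Myc TTP. Kif20a acts at the central spindle. Its wild type and TTP values were higher on the arrays numbered 3 than on the others, and its Myc and Myc TTP values lower. Dlgap5 (1455730_at) had log2 intensities of 9.76, 9.66 and 10.00 in wild type, 10.02, 9.67 and 9.54 in TTP, 9.44, 9.50 and 9.64 in Myc and 10.44, 10.26 and 10.09 in Myc TTP. Dlgap5 (HURP) stabilises the microtubules near chromosomes. Its Myc arrays lay below all wild type arrays and its Myc TTP arrays above all others. Nusap1 (1416309_at) had log2 intensities of 13.43, 13.22 and 13.27 in wild type, 13.50, 12.95 and 13.30 in TTP, 13.32, 13.24 and 13.52 in Myc and 13.60, 13.54 and 13.57 in Myc TTP. Nusap1 bundles spindle microtubules, and its Myc TTP arrays lay above those of every other group.

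Separation of the chromatids depends on the anaphase-promoting complex, securin and separase. Pttg1 (1438390_s_at) had log2 intensities of 11.76, 12.01 and 11.36 in wild type, 11.83, 11.95 and 11.39 in TTP, 10.90, 11.14 and 11.33 in Myc and 11.26, 11.23 and 11.42 in Myc TTP. Pttg1 encodes securin, the inhibitor of separase. Its wild type and TTP values lay between 11.76 and 12.01 on the arrays numbered 1 and 2, and near the Myc values on the discordant arrays. Espl1 (1433862_at) had log2 intensities of 10.32, 10.19 and 10.56 in wild type, 10.29, 9.94 and 10.52 in TTP, 10.68, 10.76 and 10.38 in Myc and 11.00, 11.08 and 10.83 in Myc TTP. Espl1 encodes separase, the protease that cuts cohesin, and its Myc TTP arrays lay above all others. Ube2c (1452954_at) had log2 intensities of 13.98, 13.86 and 14.12 in wild type, 14.14, 13.78 and 13.92 in TTP, 13.95, 13.93 and 13.88 in Myc and 14.34, 14.23 and 14.17 in Myc TTP. Ube2c is the ubiquitin-conjugating enzyme of the anaphase-promoting complex. It too was highest on the Myc TTP arrays, and its groups lay close together.

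Genes of chromosome structure, cytokinesis and transcription complete the list. Top2a (1454694_a_at) had log2 intensities of 14.36, 14.15 and 14.32 in wild type, 14.41, 14.06 and 14.18 in TTP, 14.20, 14.19 and 14.26 in Myc and 14.47, 14.43 and 14.52 in Myc TTP. Top2a is the topoisomerase that untangles sister chromatids. Ncapd2 (1423847_at) had log2 intensities of 12.80, 12.61 and 13.04 in wild type, 13.05, 12.67 and 12.82 in TTP, 12.80, 12.66 and 12.59 in Myc and 13.25, 13.12 and 13.17 in Myc TTP. Ncapd2 is a subunit of condensin I, and both genes had their highest values on Myc TTP arrays. Mki67 (1426817_at) had log2 intensities of 13.98, 13.77 and 14.00 in wild type, 14.15, 13.93 and 13.91 in TTP, 13.82, 13.90 and 13.97 in Myc and 14.01, 13.90 and 13.90 in Myc TTP. No group of arrays stood apart for Mki67. Racgap1 (1421546_a_at) had log2 intensities of 11.22, 11.38 and 11.52 in wild type, 11.44, 11.01 and 11.42 in TTP, 11.65, 11.38 and 11.38 in Myc and 11.49, 11.84 and 11.49 in Myc TTP. Racgap1 and Ect2 together switch on the contractile ring. Ect2 (1419513_a_at) had log2 intensities of 10.32, 9.86 and 10.52 in wild type, 10.78, 10.23 and 10.81 in TTP, 10.52, 10.18 and 10.51 in Myc and 10.52, 10.55 and 10.55 in Myc TTP. Ect2 was highest on the arrays labelled TTP 3 and TTP 1 and lowest on the array labelled wild type 2. Foxm1 (1417748_x_at) had log2 intensities of 8.54, 8.61 and 8.92 in wild type, 9.05, 8.30 and 8.63 in TTP, 8.87, 8.61 and 8.70 in Myc and 9.25, 9.30 and 9.34 in Myc TTP. Foxm1 is the forkhead factor that activates many of the genes above, and its Myc TTP arrays lay above all others.

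**Figure D3:**
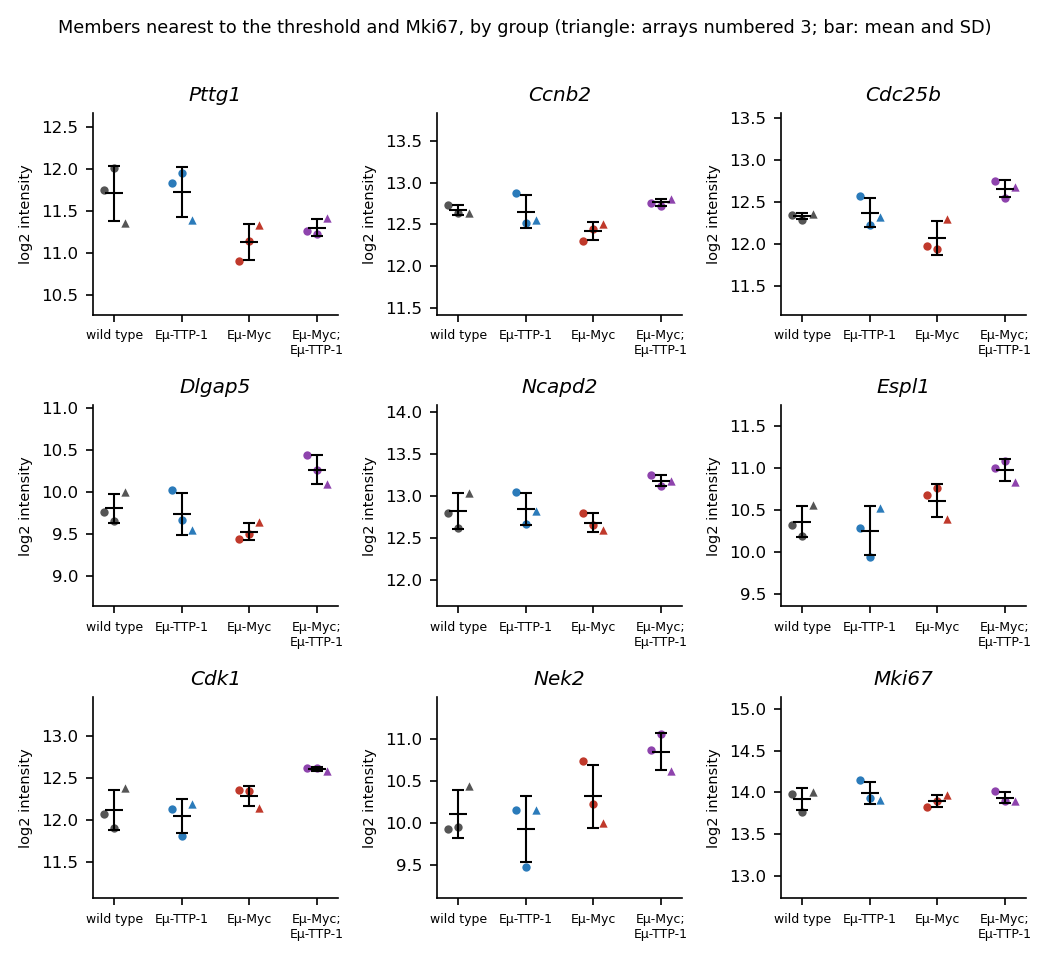
Log2 intensity of 9 members by group, with a point for each array, a triangle for the arrays numbered 3, and the mean and SD of the group (n = 3); each panel spans the same number of log2 units. Pttg1 on the wild type and TTP arrays numbered 3 lay near the Myc arrays, while Mki67 stayed between 13.77 and 14.15 on every array.

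Myc alone was accompanied by no called difference in any of the 49 mitosis genes, against 1135 called among all genes tested (11%), of which 48 were higher and 1087 lower. The median difference between the Myc and wild type arrays was 0.02 log2 units over the members, with 26 of 49 above 0, and -0.21 over all genes. At an unadjusted p under 0.05 limma gave 0 members higher and 2 lower, against 822 and 3396 of all 10287 genes. The 95% interval lay within 1 log2 unit either way for 47 of the 49 members, and no member differed by over 1 log2 unit, against 17.9% of all genes.

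In the values as deposited, the groups did not overlap for 4 members, all lower in Myc, and for none that was higher. Among all genes 41.3% lay lower without overlap and 3.49% higher. Pttg1 was nearest to the threshold, at -0.58 ± 0.19 (adjusted p = 0.0615). Ccnb2 differed by -0.25 ± 0.11 (adjusted p = 0.104), and Cdc25b by -0.26 ± 0.12 (adjusted p = 0.133). Dlgap5 (-0.28 ± 0.16) and the midzone kinesin Kif23 (-0.16 ± 0.12) were the other members without overlap. Kif20a had the highest value, 0.45 ± 0.28 (adjusted p = 0.234). By role, the median was 0.11 over 8 mitotic kinases and passenger subunits, 0.10 over 6 cyclins, Cdk1 and Cdc25 genes, 0.03 over 5 checkpoint genes, -0.03 over 7 kinesins and -0.10 over 7 centromere and kinetochore genes. Mki67 differed by -0.02 ± 0.10, Top2a by -0.06 ± 0.10, Cdk1 by 0.16 ± 0.14 and Foxm1 by 0.04 ± 0.19.

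The median of the members in Myc over wild type moved with the scaling of the arrays. With every array moved to a common median of the tested genes, the median of all genes came to 0.05 and that of the members to 0.28. Of the 49 members, 46 were then above 0 and 24 higher without overlap, against 5514 and 2407 of all 10287 genes. Lower without overlap were 0 members, against 1834 of all genes. With quantile normalization the members' median was 0.17, with 40 above 0, against 5439 of 10282 genes. Without overlap, 12 members were then higher and 0 lower, against 2049 and 2109 of all genes. Under either scaling limma called 0 members and 0 of all genes. Under the common median, 10 members and 4443 of 10287 genes had an unadjusted p under 0.05. With quantile normalization these were 5 members and 4371 of 10282 genes. The median of the members lay above that of all genes by 0.23 in the values as deposited and under the common median, and by 0.13 under quantile normalization. Ccnb2, at -0.25 ± 0.11 in the values as deposited, came to 0.0076 under the common median.

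**Figure D4:**
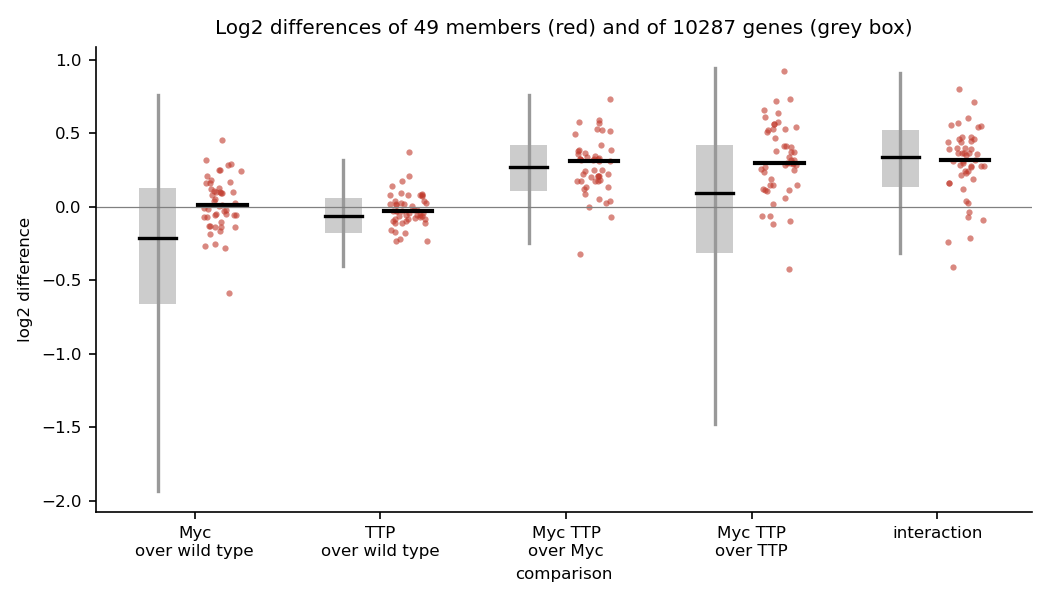
Log2 differences of the 49 members (red points; bar, their median) in 5 comparisons, beside all 10287 genes tested (grey box, 25th to 75th percentile; line, 5th to 95th percentile; bar, median). The members lie around 0 for Myc and for TTP over wild type and mostly above 0 where Myc TTP is compared with Myc or with TTP.

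TTP alone came with no difference that could be called in the mitosis genes, nor in any gene (0% of 10287). At an unadjusted p under 0.05 limma gave 0 members, and 149 of all genes. The median difference was -0.03 over the members, with 20 of 49 above 0, and -0.06 over all genes. All 49 intervals of 95% lay within 1 log2 unit either way. No member lay apart without overlap, against 0.603% of all genes higher and 3.65% lower. The smallest p-values belonged to Ect2 at 0.37 ± 0.20, Cenpf at -0.23 ± 0.12 and Incenp at -0.17 ± 0.09, each with an adjusted p of 1.00. The comparison uses the same wild type arrays as that of Myc over wild type.

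In mice with both transgenes, the values of the mitosis genes lay above those of mice with Myc alone by a small amount, which did not pass the test for any of them. The median difference was 0.31 log2 units, with 47 of 49 members above 0, and 28 of 49 had all Myc TTP arrays above all Myc arrays, against 32.3% of all genes. None was lower without overlap, against 1.41% of all genes. These counts moved with the scaling, to 5 members higher and 4 lower without overlap under the common median (724 and 865 of all 10287 genes) and to 12 higher and 2 lower under quantile normalization (1028 and 617 of 10282 genes). limma called 0 members and 0 of all genes (0%), while 17 members and 1966 of all genes had an unadjusted p under 0.05. The median over all genes tested was 0.27, or 0.04 below that of the members. With a common median per array the members' median fell to 0.05, with 25 of 49 above 0, and with quantile normalization to 0.10, with 35 above 0. Values of markers of other cells lay above those of the Myc arrays too. Their medians were 2.32 over the granulocyte markers (10 of 10 above 0), 1.68 over the erythroid markers (7 of 7), 1.73 over the T and NK markers (4 of 4) and 0.88 over the pro-B and pre-B markers (7 of 8), against 0.10 over the pan-B markers (5 of 7) and -0.39 over both mature B markers, with none called. Their part in the difference of the mitosis genes was not tested.

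Among the members, Dlgap5 had the largest difference between Myc TTP and Myc, 0.74 ± 0.16 or 1.67-fold (adjusted p = 0.172). Cdc25b differed by 0.59 ± 0.12 (adjusted p = 0.172) and Ncapd2 by 0.50 ± 0.13 (adjusted p = 0.178). Bub1b (0.58 ± 0.16) and Foxm1 (0.57 ± 0.19) also lay apart without overlap. On the chosen probe sets, Bub3 at -0.32 ± 0.20 and Ccna2 at -0.07 ± 0.16 were the 2 members below 0. The 28 members without overlap in the values as deposited, against 32.3% of all genes, included 6 of 7 centromere and kinetochore genes, 5 of 6 cyclin, Cdk1 and Cdc25 genes, 5 of 8 kinases and passenger subunits, 1 of 7 kinesins and 0 of 3 cytokinesis genes. Differences between the roles were not tested, and under the common median 5 members in all were higher without overlap. Mki67 differed by 0.04 ± 0.10.

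Against the TTP arrays, the mitosis genes of the Myc TTP arrays were higher by a median of 0.30 log2 units, with 44 of 49 above 0, where all genes had a median of 0.09. Again limma called 0 members and 0 of all genes (0%), with a smallest adjusted p of 0.0607. At an unadjusted p under 0.05 were 28 members, all higher, and 3707 of all genes. The groups did not overlap for 25 members, all higher, against 30.6% of all genes higher and 5.36% lower. This comparison, which shares its Myc TTP arrays with the one before, kept its direction under both scalings: the members' median was 0.22 with quantile normalization and 0.23 with the common median, and 42 of 49 lay above 0 under each. The members higher without overlap were then 20 and 17, with 1 lower under each. Of all genes, 2396 of 10282 and 2101 of 10287 were higher without overlap, and 1635 and 1732 lower.

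Nek2 differed most between Myc TTP and TTP, by 0.92 ± 0.25 or 1.90-fold. Espl1 differed by 0.72 ± 0.17, Aurkb by 0.66 ± 0.18, Bub1b by 0.57 ± 0.16 and Cdk1 by 0.56 ± 0.14, each with an adjusted p of 0.0607, as for Nek2. Foxm1 had a difference of 0.64 ± 0.19 (adjusted p = 0.0626), Incenp of 0.30 ± 0.09 (adjusted p = 0.0613) and Cenpf of 0.41 ± 0.12 (adjusted p = 0.0626). Kif20a, at 0.73 ± 0.28, had an adjusted p of 0.096. Pttg1 was the lowest, -0.42 ± 0.19 (adjusted p = 0.14), and Mki67 differed by -0.06 ± 0.10 and Ccna2 by 0.02 ± 0.16.

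The interaction asks whether TTP goes with another difference in the presence of Myc than without it. No member and no other gene was called (0%), while 13 members, all positive, and 1351 of all genes had an unadjusted p under 0.05. The members' median was 0.32 and that of all genes 0.34. Dlgap5 had the largest value, 0.80 ± 0.23, followed in p by Cdc25b at 0.55 ± 0.18 and Cenpf at 0.54 ± 0.17, each with an adjusted p of 0.358. With the common median, 24 of 49 members lay above 0. The 95% interval lay within 1 log2 unit for 39 of 49 members.

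Without the discordant arrays there were calls among the members in Myc over wild type and in Myc TTP over TTP. In Myc over wild type, 4 members were then called, 3 higher and 1 lower, against 14% of all genes called higher and 34.3% lower. Kif20a was higher by 0.74 ± 0.24, Spc24 by 0.49 ± 0.18 and Aurkb by 0.47 ± 0.14, while Pttg1 fell by 0.76 on the log2 scale (adjusted p = 0.00325; from 0.000487 to 0.228 over all alternatives). The median over the members was 0.11 and over all genes -0.21. In Myc TTP over TTP, 15 members were called higher and Pttg1 lower, against 21% of all genes higher and 21.9% lower. Nek2 rose by 1.04 ± 0.25, Espl1 by 0.86 ± 0.16, Kif20a by 0.85 ± 0.24, Aurkb by 0.79 ± 0.14, Aurka by 0.72 ± 0.15 and Cdk1 by 0.64 ± 0.12. The other 9 were Cdc25a, Cdc25c, Foxm1, Bub1b, Plk1, Hmmr, Spc24, Cenpf and Incenp, at 0.28 to 0.63. In TTP over wild type, in Myc TTP over Myc and in the interaction no member was called without these arrays.

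Without all 4 arrays numbered 3, which leaves 2 arrays a group, the members called in Myc over wild type were 5 higher and 2 lower, against 18.4% and 36.3% of all genes. Kif20a rose by 0.94 ± 0.19, and Spc24, Aurkb, Espl1 and Cdk1 rose by 0.36 to 0.59, while Pttg1 fell by 0.86 and Cdc25b by 0.37 on the log2 scale. In Myc TTP over Myc, 4 members rose, against 14.1% of all genes: Dlgap5 by 0.88 ± 0.16, Cdc25b by 0.69 ± 0.13, Bub1b by 0.61 ± 0.15 and Cenpe, a kinetochore motor, by 0.49 ± 0.14. In Myc TTP over TTP, 14 rose and Pttg1 fell, against 23.7% and 21.8% of all genes. In Myc TTP over TTP the share of members called higher was 30.6% without the discordant arrays and 28.6% here, against 21% and 23.7% of all genes. In Myc over wild type the same shares were 6.12% and 10.2%, against 14% and 18.4%. These shares rest on few members, and the arrays were left out with their Myc values known. The gaps to all genes were not tested. With a single array left out, Pttg1 was called lower in Myc than in wild type in 3 cases: wild type 3 (adjusted p = 0.0218), TTP 3 (adjusted p = 0.0250) or Myc 3 (adjusted p = 0.0465). The share of all genes called in these fits is not given here, so they are not read as a result about Pttg1. With all 12 arrays, no member was called under quantile normalization or the common median.

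The 49 genes had 113 probe sets, of which 102 passed the floor, and 53 of these in 32 genes were not the ones chosen. Their median was 0.14 for Myc over wild type, with 39 of 53 above 0, 0.31 for Myc TTP over Myc and 0.42 for Myc TTP over TTP, with 50 above 0. The sign was that of the chosen probe set for 39 of 53 in Myc over wild type, for 42 in Myc TTP over Myc and for 46 in Myc TTP over TTP. In a fit over 22245 single probe sets, 0 of the members' probe sets were called in any comparison. All 3 probe sets of Pttg1 were lower in Myc than in wild type, at -0.58, -0.53 and -0.50. Disagreement was plainest for Bub1, a checkpoint kinase, whose second probe set (1438571_at) gave 0.92 for Myc over wild type against -0.02 for the chosen one, and for Bub3, where a probe set (1448473_at) gave 0.55 for Myc TTP over Myc against -0.32. The second probe set of Ccna2 (1417911_at) gave 0.25 for Myc TTP over Myc against -0.07, with all Myc TTP arrays above all Myc arrays. For Myc TTP over TTP it gave 0.33 against 0.02.

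The other genes of the cell cycle, taken from lists outside the members, had no call in 4 of the 5 lists. For comparison, the members ran from -0.58 to 0.45 in Myc over wild type. The anaphase-promoting complex had 14 subunits tested, with a median of -0.0026 for Myc over wild type and 0.27 for Myc TTP over Myc, and none was called in any comparison. Of 32 further kinetochore and checkpoint genes none was called either, at medians of 0.13 and 0.29. Cenpw differed by 0.79 ± 0.24 (adjusted p = 0.0518) and Zwilch by 0.53 ± 0.18 (adjusted p = 0.0646) between Myc and wild type. Condensin and cohesin had 17 genes tested with medians of -0.04 and 0.14 and none called. Their values in Myc over wild type ran from -1.47 to 0.51. The lowest belonged to Wapl, which releases cohesin from chromosomes, at -1.47 ± 0.59 (adjusted p = 0.0926). The 12 genes of the DREAM and MYBL2 complexes had medians of 0.0094 and 0.27, and none was called. Among them, Rbl2, the pocket protein p130 that the repressing complex contains, differed by -0.93 ± 0.29 (adjusted p = 0.0558) and the E2F partner Tfdp2 by -0.82 ± 0.24 (adjusted p = 0.0513). In Myc TTP over TTP the medians were 0.07 for condensin and cohesin and 0.13 for DREAM and MYBL2, against 0.30 for the members, 0.35 for the anaphase-promoting complex and 0.38 for the further kinetochore genes.

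DNA replication and S phase genes were the other large cell cycle list, with 44 tested. Their median was 0.14 for Myc over wild type, 0.32 for Myc TTP over Myc and 0.39 for Myc TTP over TTP. In Myc over wild type 1 of the 44 was called, Ccne1, the gene of cyclin E1, which starts replication and is not a mitotic gene. It rose by 0.66 ± 0.16 (adjusted p = 0.0479), a call that, like every call in this comparison, was not made under quantile or common median scaling. E2f2 differed by -0.46 ± 0.14 (adjusted p = 0.0563).

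Markers of cell types also differed between the groups. In Myc over wild type the median was -4.42 over 10 granulocyte markers with 6 called lower, -3.21 over 7 erythroid markers with 1 called lower, -3.86 over 4 T and NK markers with 2, -1.39 over 5 monocyte markers with 2, and -1.69 over 5 plasmacytoid dendritic markers with 4. Within the B lineage it was -0.79 over 7 pan-B markers with 4 called lower, and -2.14 over 8 pro-B and pre-B markers with 7 called lower. Both mature B markers tested were lower, at a median of -2.68, and 1 was called. The summed intensity of the pro-B and pre-B markers was 37327 to 65092 in wild type and 11734 to 30895 in Myc. That of the 49 members was 199451 to 233097 and 210088 to 223454, and it was 190639 to 242879 in TTP and 245661 to 259528 in Myc TTP. In TTP over wild type the medians of the 8 marker lists lay between -0.45 (plasmacytoid dendritic) and 0.49 (erythroid), with that of the granulocyte markers at -0.0075, and none of their genes was called. In Myc TTP over TTP the medians were below 0 for all 8 lists, at -1.93 for granulocyte, -2.11 for erythroid, -1.72 for T and NK, -1.10 for pro-B and pre-B and -0.41 for pan-B markers, with no gene called. The part of these markers' cells in the values of the mitosis genes was not tested.

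Within the Myc group the markers of other cells also separated single arrays. The median log2 intensity of the granulocyte markers was 5.67, 7.43 and 12.36 in Myc, 13.19, 13.63 and 12.56 in wild type, 13.72, 13.97 and 11.87 in TTP, and 12.02, 10.91 and 10.49 in Myc TTP. The array labelled Myc 3 thus lay near the array labelled wild type 3. On the same 2 arrays the median of the mitosis genes was 11.37 and 11.52. On the arrays labelled Myc 1 and Myc 2 it was 11.64 and 11.28.

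**Figure D5:**
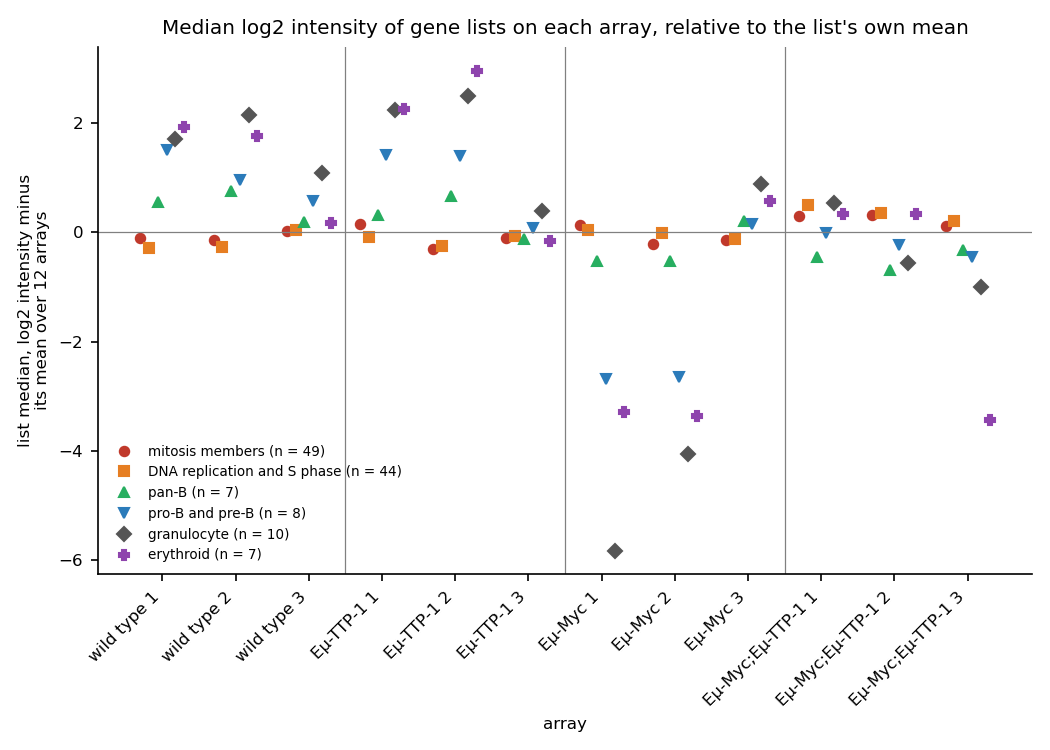
Median log2 intensity of 6 gene lists on each array, minus the mean of that median over the 12 arrays (n, genes of the list). The mitosis and DNA replication lists range less than the marker lists, with medians before centring of 11.19 to 11.82 and of 11.04 to 11.83. Granulocyte and pro-B and pre-B markers are lowest on the arrays labelled Myc 1 and Myc 2, and erythroid markers are low on these and on the array labelled Myc TTP 3, with medians before centring of 5.30, 5.23 and 5.15.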

How the data were processed

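Total RNA of 12 samples in 4 groups of 3 was measured on 1 array each. Per the submitters' processing notes the values are GCRMA summaries, with no version given. The deposited intensity is linear (1.73 to 120125, array medians of 10.9 to 13.9). Nothing used here records further steps by the authors. GCRMA normalizes between arrays, so a change in total RNA per cell cannot be seen.

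Of 45101 probe sets, 34958 had a single gene symbol in the platform annotation, 932 had several and 9211 none. Symbols were updated through RefSeq genes (GRCm38.p6), which held 34754 of them. Genes were represented by the probe set of highest mean and tested when log2 intensity exceeded 4 on at least 3 of 12 arrays, which left out 7907 of 18194. No pseudocount was used. Differences were tested two-sided with limma 3.58.1 in R 4.3.3 (lmFit, eBayes with an intensity trend) on 4 group means with 8 residual degrees of freedom, with Benjamini-Hochberg adjustment over 10287 genes, and the script was tested on simulated data. The labels call the samples biological replicates. If they are not from separate animals, p-values measure only the spread between these samples.

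Members, lists, tests and named genes were chosen with earlier results of these data known. Values on every array are given for the 3 members with the smallest p in each comparison, for the member with the highest mean and the one with the largest Myc over wild type difference in each role, and for Mki67, Top2a, Cdk1, Aurkb, Bub1b, Mad2l1 and Foxm1. Of each other list, the 2 genes with the smallest p in Myc over wild type were eligible. Kif23, Cenpe, further members named where arrays were left out, and the extra probe sets of Bub1, Bub3, Ccna2 and Pttg1 were named after their values were seen. Residuals of same-numbered wild type and TTP arrays correlated at 0.498, 0.664 and 0.821. Correlations of arrays with different numbers are not given here, so these values cannot show that the numbers pair the groups. The labels do not say what the numbers mark. Both arrays numbered 3 have a high Myc signal, which such a correlation can contain. Between other groups the same-numbered arrays correlated at -0.651 to 0.497. The alternatives were no floor and a floor of 6, the probe set of largest SD, quantile and common median scaling, no trend, a replicate block, a threshold of 0.01, and arrays left out.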

Additional observations from a re-analysis of the deposited data

How the results depend on the processing

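No member was called in any comparison with no floor, a floor of 6, the most variable probe set of a gene, no trend, quantile normalization, the common median, the threshold of 0.01 or the replicate block. With the replicate block the members' median was 0.02 for Myc over wild type, -0.03 for TTP over wild type, 0.31 for Myc TTP over Myc, 0.30 for Myc TTP over TTP and 0.32 for the interaction, and the block changed no call. The count of members called moved only with the arrays used. For Myc over wild type it was 4 without the discordant pair (wild type 3, TTP 3), 7 without the 4 arrays numbered 3, and 0 to 3 with single arrays left out (3 without wild type 3, 1 without TTP 3, 1 without Myc 3). For Myc TTP over TTP it was 16, 15 and 0 to 14 in the same order (13 without wild type 3, 14 without TTP 3). Of all genes, 42.9% were called there without the discordant pair and 45.5% without the arrays numbered 3. For Myc TTP over Myc it was 4 without the 4 arrays numbered 3, against 14.7% of all genes. The share of all genes with single arrays left out is not given here, so those counts are not read as a result about the members. The cause of these moves was not tested. Over all genes, the 1135 calls of Myc over wild type became 0 under both scalings, 4965 without the discordant pair, and 5626 without the arrays numbered 3. The members' median moved with the scaling. It came to 0.28 for Myc over wild type, 0.046 for Myc TTP over Myc and -0.0026 for the interaction under the common median, and to 0.10 and 0.13 for the latter pair under quantile normalization. Ccnb2 in Myc over wild type reversed to 0.0076 under the common median. With single arrays left out the median ranged from -0.05 to 0.11, from -0.13 to 0.08, from 0.22 to 0.34, from 0.22 to 0.42 and from 0.26 to 0.42 in the 5 comparisons.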
